A study of Cavia porcellus with 34 samples.

Results

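The insulin and insulin-like growth factor (IGF) genes were read in RNA from punches of the hypothalamic paraventricular nucleus (PVN), where the hormonal stress response starts. The set held 10 genes, chosen by gene symbol. They were the ligand gene IGF1, the receptor genes INSR, IGF1R and IGF2R, the adaptor genes IRS1 and IRS2, and the binding protein genes IGFBP2, IGFBP3, IGFBP4 and IGFBP5. Of these 10 genes, 9 had a row among the 12114 genes of the F1 table, 8 among the 12207 of F2 and 10 among the 12068 of F3, out of 12592 symbols over the 3 tables. IGFBP2 was read only in F3, and IGFBP3 only in F1 and F3; the other values of these 2 genes were not analysed here. Every row present passed the filter on low values (a mean of at least 10).

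All animals were juvenile female Dunkin-Hartley guinea pigs of the paternal line, killed at an age that the series gives as postnatal day 40. A female of the F0 generation, the ancestor of each animal, had received the synthetic glucocorticoid betamethasone (sGC, "Beta" in the labels) or a saline vehicle (Veh, "Control") in late pregnancy. F1 animals (5 Veh, 5 sGC) were therefore exposed as fetuses, whereas F2 (5 Veh, 5 sGC) and F3 animals (6 Veh, 6 sGC) descended from the exposed line through males that were mated with untreated, purchased females. Of the F3 sGC animals, replicates 5 and 6 were sequenced in a second batch. The study counts its sample sizes in independent litters, though the litter of each sequenced animal is not given in the sources used here. The PVN was taken as a tissue punch that also takes neighbouring tissue, and in such bulk RNA fewer cells of a type cannot be told apart from less RNA per cell.

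Insulin and IGF1 bind the related tyrosine kinase receptors encoded by INSR and IGF1R. Both receptors phosphorylate the adaptors IRS1 and IRS2, which recruit PI3 kinase and so switch on AKT and mTOR, while a parallel arm runs through Ras and MAP kinases. The IGF2R product has no kinase and clears IGF2 by carrying it to lysosomes. IGF-binding proteins hold IGFs in the extracellular space, and proteases such as PAPPA release them. In the brain the pathway is known for its part in neuronal growth and survival and, in the hypothalamus, in the sensing of energy stores.

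The values were counts per gene that the authors had normalized, and they were not scaled here. Their sum ranged from 15.57 to 21.94 M (mega) per animal in F1, from 15.65 to 19.44 M in F2 and from 18.69 to 18.98 M in F3. The values lacked 1 direction of variation between animals in F1, 1 in F2 and 2 in F3, seen as singular values near 0 (the removed directions below). That the authors' normalization removed them was inferred and not tested. In F1 the removed direction was mostly a single animal, F1 Veh replicate 3, with 78.9% of the squared weight. Its values could be computed from the other 9 animals with a median gap of 0.000327 on the log2 scale over 9416 genes, so it adds little that is independent to the F1 Veh group. Markers of neurons and of PVN neuroendocrine cells (AVP, OXT, CRH, TRH, SIM1, OTP) were listed in every generation, except ELAVL4 in F3. F1 sGC replicate 1 stood apart in markers of vessels and in the fibroblast gene LUM, at 748 against 144 to 306 in the other 9 F1 animals. LUM was the only 1 of the 6 listed fibroblast and meningeal markers that was read in F1. F1 sGC replicate 2 stood apart in the oligodendrocyte gene MBP, at 61408 against 20063 to 40170 in the other 9. It was also highest in the astrocyte gene SLC1A2, at 42808 against 15460 to 26799. The 6 astrocyte markers together summed to 113613 to 174508 in F1 Veh and 141788 to 174791 in F1 sGC, which overlapped.

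No gene of the set passed an adjusted p of 0.05 in any generation (limma with Benjamini-Hochberg adjustment over all genes tested, here and below). This was 0 of 9 genes in F1, 0 of 8 in F2 and 0 of 10 in F3. Over all genes tested, 78 of 11874 passed in F1 (0.657%), 0 of 11965 in F2 (0%) and 6 of 11866 in F3 (0.0506%). At an unadjusted p under 0.05 the count was 5 of 9 genes in F1, 1 of 8 in F2 and 1 of 10 in F3, against 13.6%, 11.6% and 13.1% of all genes tested. The 5 genes of F1 were INSR, IRS1, IGF1R, IGF2R and IGFBP3, and each had the higher mean in sGC. In F1, 8 of 9 genes had a fold change above 0, with a median log2 fold change of 0.33 against 0.07 for all genes tested. In F2 the count was 2 of 8, with a median of -0.07 against -0.08, and in F3 it was 3 of 10, with a median of -0.04 against -0.002.

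**Figure D1:**
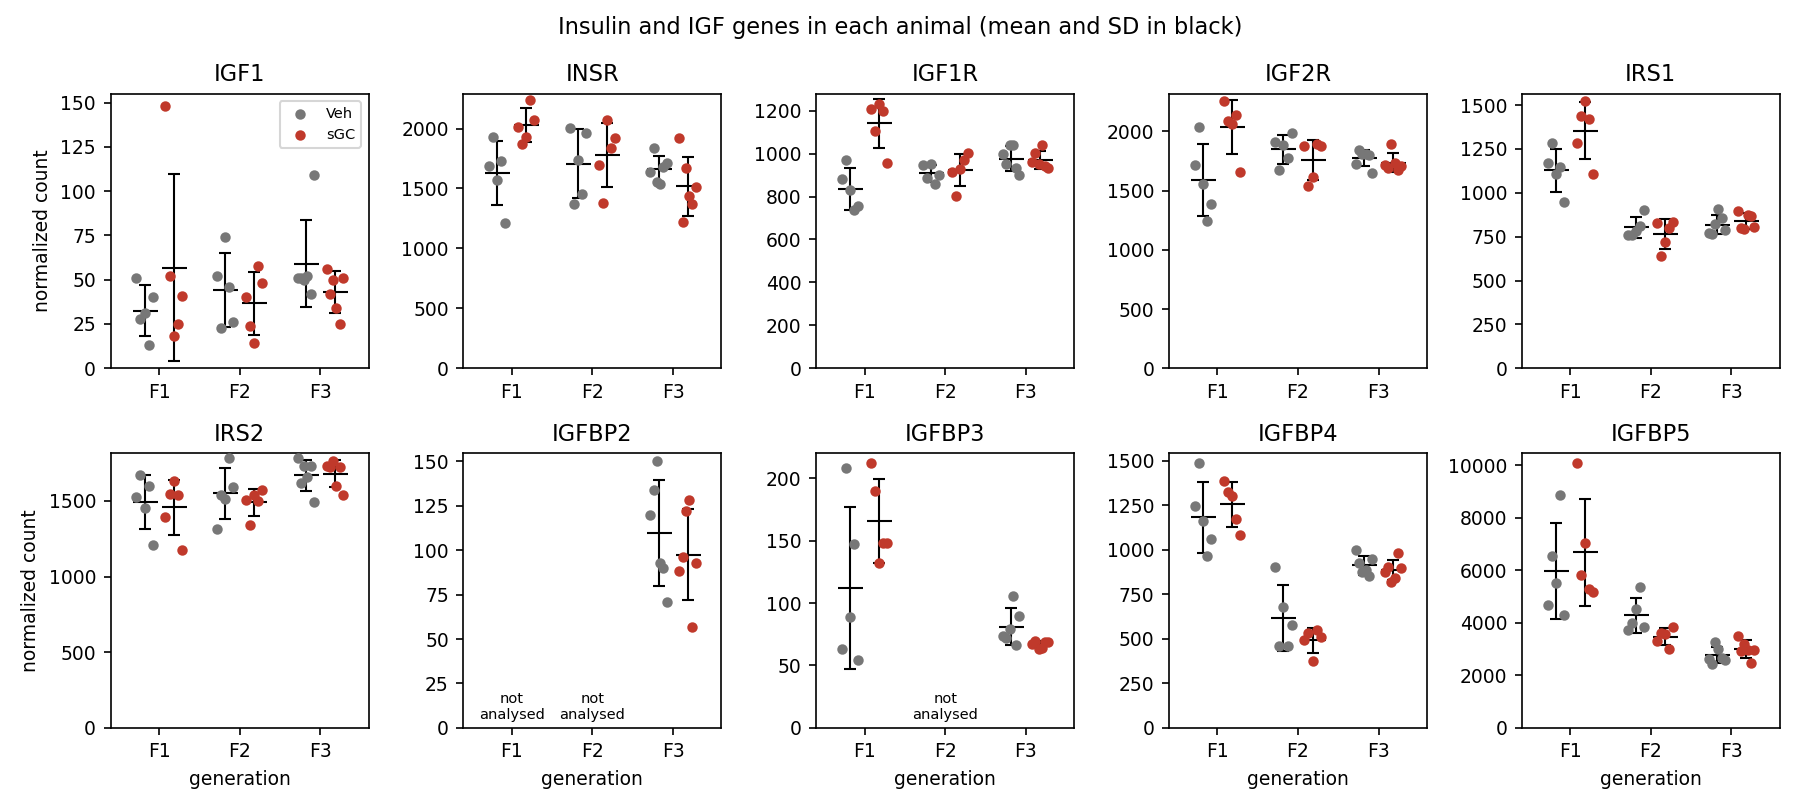
Normalized count (vertical axis, from 0, own scale for each gene) of the 10 genes in every animal of F1, F2 and F3; grey points are Veh animals, red points sGC animals, black bars the mean and SD. In F1 the sGC points of IGF1R lie at 956 to 1232 and those of Veh at 737 to 972, while both groups share 1 range in F2 and F3.

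The IGF1 receptor gene had the smallest p of the set in F1. IGF1R was read at 883, 972, 828, 737 and 756 in the 5 F1 Veh animals. It was read at 1208, 1105, 1232, 1200 and 956 in the 5 F1 sGC animals. All 5 sGC animals lay above the Veh mean and 4 lay above every Veh animal, so the groups overlapped only through Veh replicate 2 and sGC replicate 5. The mean was 1140 ± 114 (SD, n = 5) in sGC and 835.2 ± 96.1 (SD, n = 5) in Veh, 1.37-fold, with a log2 fold change of 0.45 ± 0.12 (SE). The adjusted p in limma was 0.0845, which missed the threshold. The exact two-sided permutation test gave p = 0.0159, where 5 against 5 animals cannot go below 0.00794.

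The 2 animals that made IGF1R overlap were the ones with the highest sum in F1 (Veh replicate 2, 21.94 M) and the lowest sum among sGC (sGC replicate 5, 16.23 M). With each animal scaled to the sample total, IGF1R ranged from 818 to 896 in Veh and from 1019 to 1175 in sGC, with no overlap. The log2 fold change was then 0.39 ± 0.05 (SE), with an adjusted p of 0.00119 in limma. On that scale far more genes passed in all: 1943 of 11873 genes (16.4%), and 7.29% of genes had every sGC animal above every Veh animal, against 1.79% in the values as deposited. IGF1R and IGF2R were the 2 of 9 genes of the set that passed. In the values as deposited, 3 of 9 genes passed without Veh replicate 2, which were IGF1R (adjusted p = 0.0244 in limma), IGF2R (0.0408) and IGFBP3 (0.0442), when 474 genes passed in all (3.99%). Without sGC replicate 5, IGF1R was the 1 gene of the set to pass (0.0412), when 133 genes passed in all (1.12%). With any other of the 10 animals left out, 0 of 9 genes passed, and the adjusted p reached 0.253 for IGF1R and 0.458 for IGF2R.

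In F2 and F3 no such difference in IGF1R was detected. The F2 Veh animals were read at 946, 888, 950, 858 and 900, and the F2 sGC animals at 914, 801, 930, 968 and 1002. In F3 the Veh animals ranged from 898 to 1039 with a median of 974.5, and the sGC animals from 931 to 1038 with a median of 955. The groups overlapped almost wholly in both generations. The log2 fold change was 0.02 in F2 (95% interval -0.14 to 0.18) and -0.01 in F3 (95% interval -0.10 to 0.08), while the F1 interval ran from 0.20 to 0.70. The F3 value was 0.02 in the first sequencing batch alone.

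IGF2R, the clearance receptor for IGF2, had a similar order of groups in F1. It was read at 1716, 2037, 1556, 1245 and 1391 in the F1 Veh animals and at 2261, 2089, 2064, 2135 and 1657 in the F1 sGC animals. Again 4 of 5 sGC animals exceeded every Veh animal, and sGC replicate 5 was the lowest of its group. The mean was 2041 ± 228 (SD, n = 5) in sGC and 1589 ± 306 (SD, n = 5) in Veh, with a log2 fold change of 0.37 ± 0.13 (SE) and an adjusted p of 0.193 in limma. The exact two-sided permutation p was 0.0397. Scaled to the sample total, the groups did not overlap, at 1440 to 1714 in Veh and 1884 to 2179 in sGC, and the adjusted p in limma was 0.00451.

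The later generations gave IGF2R a narrow spread around equal levels. F2 Veh animals were read at 1911, 1673, 1886, 1779 and 1990, and F2 sGC animals at 1873, 1542, 1617, 1890 and 1873. In F3 the Veh range was 1653 to 1841 with a median of 1809, and the sGC range 1672 to 1896 with a median of 1712.5. The log2 fold change was -0.07 ± 0.08 (SE) in F2, where scaling to the sample total turned it to 0.01, and -0.03 ± 0.04 (SE) in F3. All of these groups overlapped.

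INSR, the insulin receptor gene, was read at 1688, 1932, 1571, 1732 and 1209 in the F1 Veh animals and at 2014, 1874, 1933, 2241 and 2073 in the F1 sGC animals. Only sGC replicate 2 lay below the highest Veh animal. The mean was 2027 ± 142 (SD, n = 5) against 1626 ± 267 (SD, n = 5), a log2 fold change of 0.33 ± 0.13 (SE) with an adjusted p of 0.225 in limma and an exact permutation p of 0.0159 (two-sided). Scaled to the sample total, INSR overlapped more (1433 to 2003 in Veh, 1729 to 2357 in sGC) and stayed short of the threshold, with an adjusted p of 0.0795.

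INSR was also the receptor gene with the widest spread in the later generations. In F2 the Veh animals were read at 2002, 1373, 1741, 1452 and 1965 and the sGC animals at 1695, 1375, 2070, 1837 and 1918, a log2 fold change of 0.06 (95% interval -0.21 to 0.34). In F3 the sGC animals ran from 1218 to 1918 with a median of 1474, and the Veh animals from 1537 to 1842 with a median of 1658.5. There, 4 of 6 sGC animals lay below every Veh animal, 1 lay above every one, and the log2 fold change of -0.14 ± 0.09 (SE) had an adjusted p of 0.53 in limma. It was -0.209 without sGC replicate 1 and -0.0782 without sGC replicate 2.

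**Figure D2:**
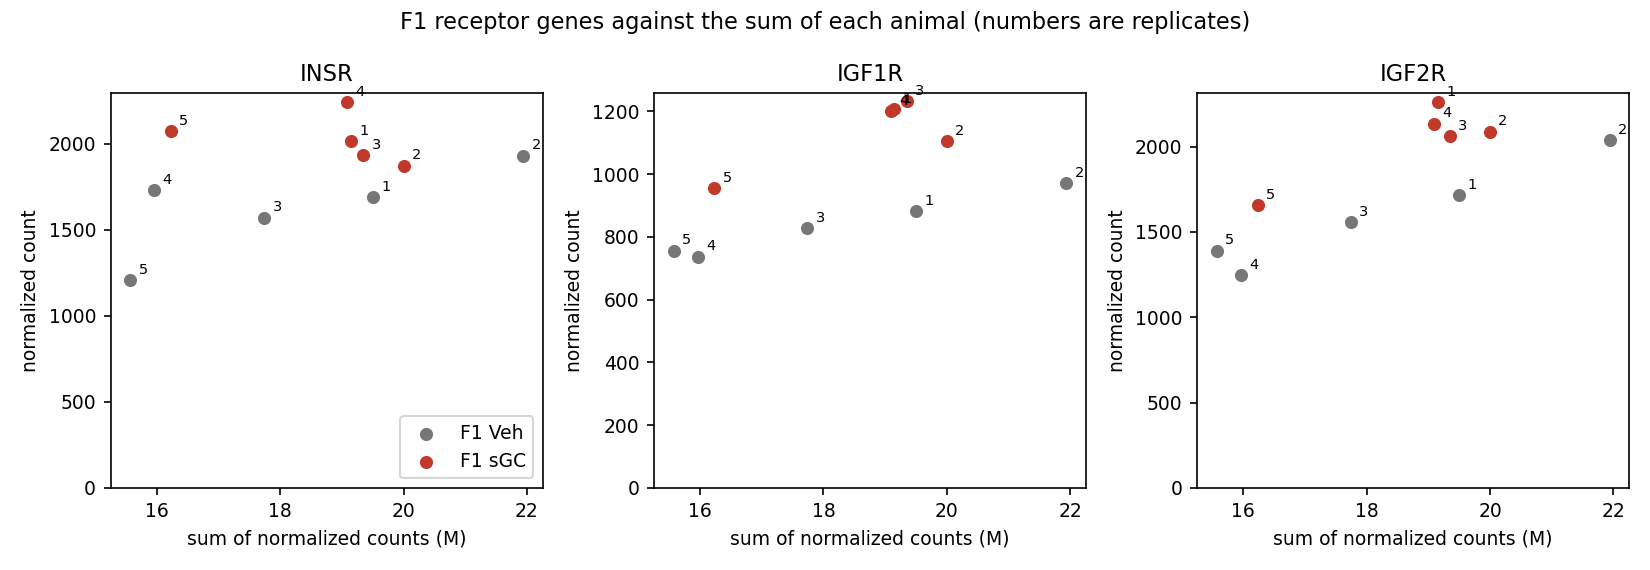
Normalized count of INSR, IGF1R and IGF2R in the 10 F1 animals (vertical axis, from 0) against the sum of all normalized counts of that animal, in M (horizontal axis); grey points are Veh, red points sGC, and numbers are replicates. For IGF1R and IGF2R every sGC point lies above the Veh points of a like sum, and Veh replicate 2 (21.94 M) lies above sGC replicate 5 (16.23 M).

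Neither adaptor gene passed in any generation. IRS1 was read at 1168, 1284, 1105, 1145 and 945 in F1 Veh and at 1282, 1439, 1522, 1423 and 1105 in F1 sGC. Here 3 of 5 sGC animals exceeded every Veh animal. The means were 1129 ± 123 (SD, n = 5) and 1354 ± 164 (SD, n = 5), with a log2 fold change of 0.26 ± 0.12 (SE), an adjusted p of 0.356 in limma and an exact two-sided permutation p of 0.0714.

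IRS1 in F2 had means of 803.2 ± 59.6 (SD, n = 5) in Veh and 764.8 ± 83.4 (SD, n = 5) in sGC, and in F3 of 818.3 ± 55.3 (SD, n = 6) and 839.7 ± 43.9 (SD, n = 6). Neither difference exceeded the spread (log2 fold change -0.07 and 0.04, adjusted p 0.748 and 0.785 in limma). IRS2, the other adaptor, kept close to equal group means. Its F1 means were 1492 ± 177 (SD, n = 5) in Veh and 1457 ± 180 (SD, n = 5) in sGC, and its log2 fold changes were -0.04, -0.05 and 0.01 in F1, F2 and F3, with adjusted p of 0.934, 0.822 and 0.955 in limma. The 95% interval was widest in F1, from -0.29 to 0.22.

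The ligand gene IGF1 was read at low values. In F1 it stood at 51, 28, 31, 13 and 40 in Veh and at 148, 52, 18, 25 and 41 in sGC. The F1 sGC mean of 56.8 ± 52.7 (SD, n = 5) rested on sGC replicate 1, the animal with the high LUM value, and the log2 fold change of 0.51 ± 0.42 (SE) dropped to 0.07 without that animal. In F2 the Veh values were 52, 23, 74, 46 and 26 and the sGC values 40, 24, 14, 58 and 48, which overlapped almost fully. In F3 the sGC animals ranged from 25 to 56 with a median of 46, and the Veh animals from 42 to 109 with a median of 51. The Veh mean of 59.2 ± 24.7 (SD, n = 6) was raised by Veh replicate 6 at 109, the other 5 lying between 42 and 52. The F3 log2 fold change was -0.42 ± 0.23 (SE) with all animals and -0.235 without Veh replicate 6, with an adjusted p of 0.457 in limma and an exact two-sided permutation p of 0.162.

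Among the binding protein genes, IGFBP3 had the higher mean in sGC in F1 and the lower mean in sGC in F3, and neither difference passed. IGFBP3 encodes the main IGF carrier of serum. In F1 it was read at 63, 208, 89, 147 and 54 in Veh and at 212, 190, 132, 148 and 148 in sGC. All 5 sGC animals lay above the Veh mean, but only 1 lay above Veh replicate 2. The mean was 166 ± 33.5 (SD, n = 5) in sGC against 112.2 ± 64.7 (SD, n = 5) in Veh, a log2 fold change of 0.72 ± 0.27 (SE) with an adjusted p of 0.227 in limma and an exact two-sided permutation p of 0.103.

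In F3 the 6 sGC animals of IGFBP3 ranged from 63 to 70 with a median of 68, and the Veh animals from 66 to 106 with a median of 76.5. All 6 sGC animals lay below the Veh mean. The log2 fold change was -0.26 ± 0.10 (SE), with an adjusted p of 0.304 in limma and an exact two-sided permutation p of 0.0173, where 6 against 6 animals cannot go below 0.00216. The SD of the sGC group was 2.9 at a mean of 67, below the 8.19 that is the square root of that mean, which is the spread that counting alone gives to raw reads of that number.

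IGFBP5, an abundant binding protein of the extracellular matrix, was the 1 gene of the set with an unadjusted p under 0.05 in F2. The F2 Veh animals were read at 3710, 4006, 4530, 5351 and 3855 and the F2 sGC animals at 3291, 3628, 3569, 3006 and 3844. Of 5 sGC animals, 4 lay below every Veh animal. The sGC mean of 3468 ± 325 (SD, n = 5) compared with 4290 ± 669 (SD, n = 5) in Veh, a log2 fold change of -0.30 ± 0.10 (SE) with an adjusted p of 0.29 in limma and an exact two-sided permutation p of 0.0159. Scaled to the sample total, the sGC range of 3006 to 4188 reached further into the Veh range of 3574 to 5307.

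Elsewhere IGFBP5 spread widely. In F1 it ran from 4288 to 8855 in Veh and from 5178 to 10077 in sGC, with the top value again in sGC replicate 1. The log2 fold change of 0.16 ± 0.18 (SE) had an adjusted p of 0.775 in limma and dropped to 0.00313 without that animal. In F3 Veh averaged 2762 ± 312 (SD, n = 6) and sGC 2992 ± 335 (SD, n = 6), which gave a log2 fold change of 0.12 ± 0.08 (SE) and an adjusted p of 0.576.

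IGFBP4, which mainly inhibits IGF action, had means of 1184 ± 199 and 1254 ± 124 in F1 Veh and sGC (SD, n = 5 each), with a log2 fold change of 0.09 ± 0.13 (SE). In F2 every sGC animal lay below the Veh mean of 615 ± 184 (SD, n = 5), at 492, 534, 374, 549 and 512, but the Veh animals themselves were read at 901, 458, 679, 461 and 576, so the groups overlapped, and the adjusted p in limma was 0.547. In F3 the means were 913.7 ± 53.6 and 887 ± 57.6 (SD, n = 6 each), a log2 fold change of -0.04 ± 0.05 (SE). IGFBP2, the main binding protein of brain fluid, ranged in F3 from 71 to 150 with a median of 106.5 in Veh and from 57 to 128 with a median of 94.5 in sGC. Its log2 fold change was -0.17 ± 0.20 (SE), with an adjusted p of 0.775 in limma, and it was 0.01 in the first sequencing batch alone. With 1 animal left out it ran from -0.286 (without Veh replicate 6) to -0.0276 (without sGC replicate 5).

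**Figure D3:**
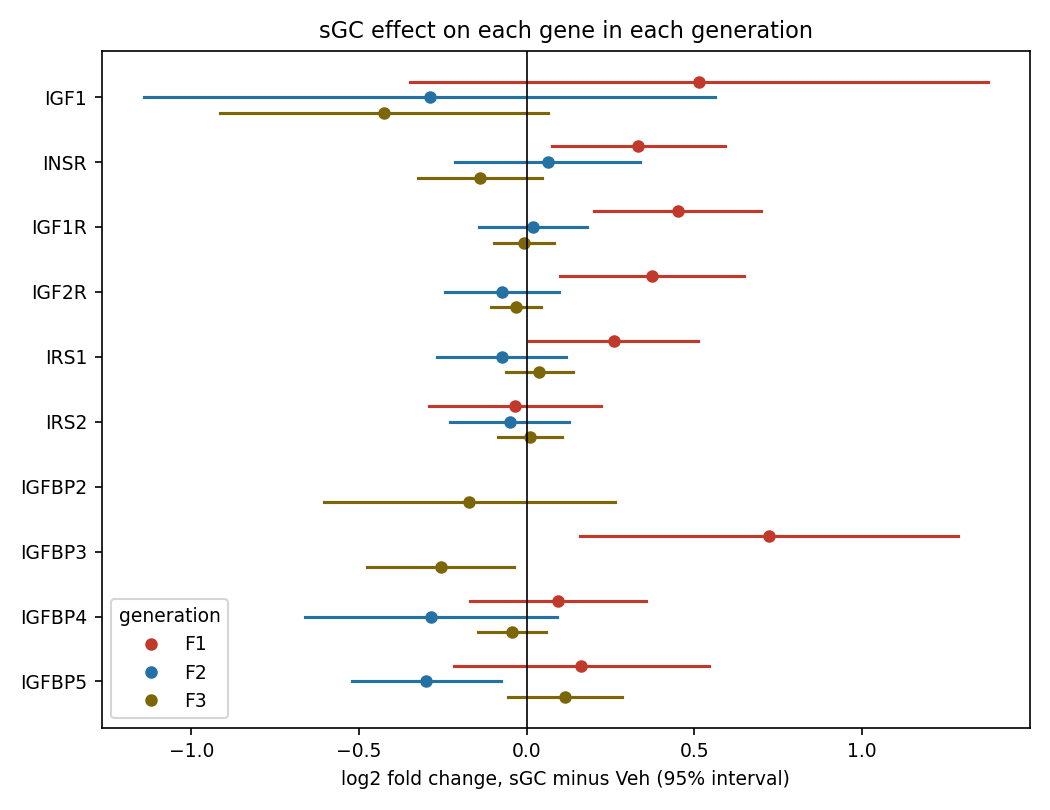
Log2 fold change of sGC minus Veh (horizontal axis) for each of the 10 genes in F1 (red), F2 (blue) and F3 (olive), with the 95% interval of the limma fit. The F1 intervals of INSR, IGF1R, IGF2R, IRS1 and IGFBP3 lie above 0, and those of IGFBP5 in F2 and of IGFBP3 in F3 lie below 0, before adjustment over all genes.

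Within the first F3 sequencing batch (6 Veh, 4 sGC), the F3 log2 fold changes were -0.11 for INSR, -0.32 for IGF1, -0.28 for IGFBP3 and 0.18 for IGFBP5, and none of the 10 genes passed (lowest adjusted p 0.475 in limma). The second batch gives no value of its own here, since its 2 re-sequenced Veh libraries were not used.

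Whether the sGC effect differed between generations was tested as a difference of the within-table log2 fold changes, over all 32 animals and the 11429 genes read in all 3 tables. The 3 tables were normalized apart, so only these differences and no levels were compared. For F1 against F2, IGF1R and IGF2R passed, 2 of 8 genes, against 873 genes in all (7.64%). For F1 against F3, IGF1R passed, 1 of 8, against 358 genes in all (3.13%). For F2 against F3, 0 of 8 genes passed, against 1 gene in all (0.00875%), and no gene of the set had an unadjusted p under 0.05 there.

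The IGF1R effect was larger in F1 than in F2 by 0.43 ± 0.11 (SE, log2 scale, adjusted p = 0.0122 in limma) and larger than in F3 by 0.46 ± 0.10 (SE, adjusted p = 0.0108). The IGF2R effect was larger in F1 than in F2 by 0.45 ± 0.13 (SE, adjusted p = 0.0303), and the difference to F3 of 0.41 ± 0.13 (SE) did not pass (adjusted p = 0.0626). INSR differed by 0.27 ± 0.17 and 0.47 ± 0.16 (SE, adjusted p 0.343 and 0.102), and IRS1 by 0.34 ± 0.12 and 0.22 ± 0.12 (SE, adjusted p 0.0811 and 0.314), for F1 against F2 and F3. With only F1 and F3 joined, the IGFBP3 difference was 0.98 ± 0.32 (SE) with an adjusted p of 0.0859.

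The F1 against F2 differences depended on how the spread was set. The fit above shares 1 spread per gene over the 3 tables, and the F3 animals varied least. With a variance factor for each generation, the F1 against F2 difference of IGF1R had an adjusted p of 0.0919 and that of IGF2R one of 0.104 in limma, and with F1 and F2 joined alone they were 0.105 and 0.159. With the removed directions as covariates they were 0.0371 and 0.0673. Leaving out 1 animal at a time, the IGF2R difference lost its call in 9 of 32 cases (adjusted p up to 0.0786), and that of IGF1R in 0. For IGF1R against F3 the adjusted p stayed between 0.0193 and 0.0403 under these 3 settings. The median difference over all genes between F1 and F2 was 0.13 as deposited and -0.01 with median-of-ratios size factors, and on the latter scale the IGF1R difference was 0.29 ± 0.06 (SE). On that scale the IGF2R difference was 0.31 ± 0.06 (SE). Those of INSR and IRS1 fell to 0.13 ± 0.15 and 0.20 ± 0.09 (SE) and did not pass.

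**Figure D4:**
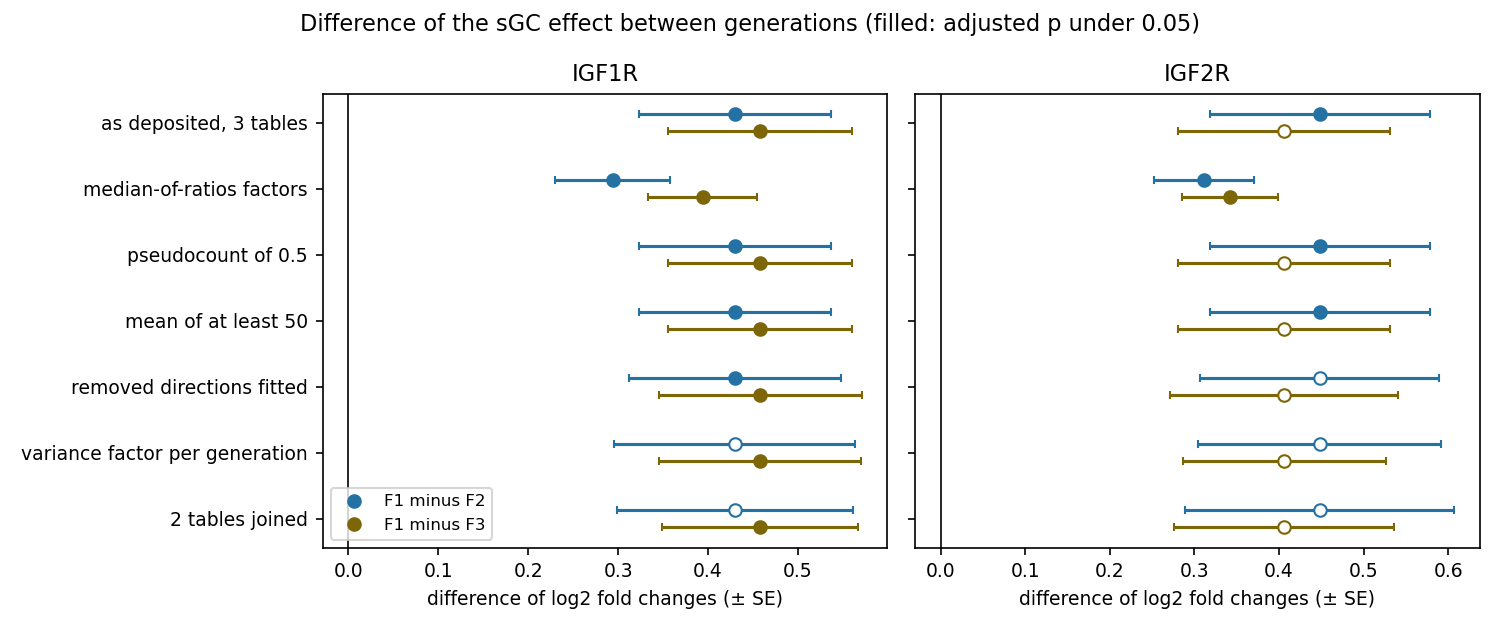
Difference of the sGC log2 fold change between generations (horizontal axis, point and SE) for IGF1R (left) and IGF2R (right) under 7 settings (vertical axis); blue is F1 minus F2, olive F1 minus F3, and filled points have an adjusted p under 0.05. All points lie above 0; the IGF1R difference between F1 and F3 is filled in every setting shown, both F1 minus F2 points are open with a variance factor per generation and with 2 tables joined, and that of IGF2R also with the removed directions fitted.

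The other genes of the pathway were taken from a list of 84 genes in 9 arms, of which 72 were tested in each generation. In F1, 1 of 72 passed, where 0.657% of all genes tested did, and 56 had a fold change above 0, with a median log2 fold change of 0.17 against 0.07 for all genes. In F2, 0 of 72 passed and 65 lay below 0, with a median of -0.09 against -0.08. In F3, 0 of 72 passed, 45 lay below 0 and the median was -0.02 against -0.002. At an unadjusted p under 0.05 in the values as deposited, 16 genes were higher and 0 lower in F1. In F2, 1 was higher and 7 lower, and in F3, 6 were higher and 8 lower. The counts are 22.2%, 11.1% and 19.4% of the list in F1, F2 and F3, against 13.6%, 11.6% and 13.1% of all genes tested. The F2 share was thus close to that of all genes. Scaled to the sample total, 15 genes of the list passed in F1 at an adjusted p under 0.05 in limma. Among them HRAS, MAP2K1 and RHEB had the lower mean in sGC. Over all genes, 1026 that passed on that scale were higher and 917 lower, against 72 and 6 as deposited.

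The gene that passed in F1 was RICTOR, the scaffold that defines mTOR complex 2. RICTOR was read at 88, 106, 81, 78 and 69 in F1 Veh and at 167, 186, 154, 142 and 126 in F1 sGC. The groups did not overlap, as in 1.79% of all genes for this direction. RICTOR rose by a log2 fold change of 0.87 ± 0.17 (SE), with an adjusted p of 0.0195 in limma. The adjusted p was 0.0735 without F1 Veh replicate 3, 0.0665 without F1 Veh replicate 4 and 0.0572 without F1 Veh replicate 5. The RICTOR effect was larger in F1 than in F2 by 0.97 ± 0.17 (SE, adjusted p = 0.00103) and than in F3 by 0.95 ± 0.17 (SE, adjusted p = 0.00129). For RICTOR and the other listed genes, such differences were taken only from the fit that shares 1 spread per gene over the 3 tables. They were not examined under the other settings. Of the 69 listed genes in that test, 9 passed for F1 against F2 (13%, against 7.64% of all genes) and 2 for F1 against F3 (2.9%, against 3.13%), a share close to that of all genes.

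Among the ligand carriers, the IGFBP proteases and the glucose carriers, 0 genes passed in F1 in the values as deposited with all animals. The protease gene PAPPA passed in F1 with median-of-ratios size factors and with the sample total. IGFBP6, a binding protein that prefers IGF2, was read at 69, 51, 46, 25 and 45 in F1 Veh and at 910, 177, 58, 256 and 50 in F1 sGC. Its top value fell in sGC replicate 1, and its log2 fold change of 1.85 ± 0.50 (SE) had an adjusted p of 0.0848 in limma. SHC3, an adaptor of the neuronal Ras arm, had a log2 fold change of 0.48 ± 0.14 (SE) in F1 with an adjusted p of 0.11. SHC3 passed with median-of-ratios size factors, with the sample total and without F1 Veh replicate 2. IGFBP6 passed without F1 sGC replicate 3 and without F1 sGC replicate 5. Within F1, neither passed under any other setting run. The SHC3 difference for F1 minus F2 was 0.633 ± 0.162 (SE, adjusted p = 0.0148 in limma) and passed. For F1 minus F3 it was 0.5 ± 0.155 (SE, adjusted p = 0.0661) and did not. In the values as deposited, the PI3K-AKT arm had 12 of 13 genes above 0 in F1 but a median of only 0.16. None of its genes had an unadjusted p under 0.05 there. GSK3B of this arm passed in F1 with median-of-ratios size factors and with the sample total, where 17.3% and 16.4% of all genes passed.

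In F2 the smallest p values of the list belonged to STC1, SLC2A1 and GAB1. STC1, a secreted inhibitor of IGFBP proteases, ranged from 101 to 173 in Veh and from 82 to 114 in sGC, a log2 fold change of -0.61 ± 0.16 (SE, adjusted p = 0.157 in limma). The glucose carrier SLC2A1 had a log2 fold change of -0.24 ± 0.08 (SE, adjusted p = 0.31) and the adaptor GAB1 one of -0.32 ± 0.13 (SE, adjusted p = 0.372). Both had log2 fold changes of the other sign in F1, at 0.35 ± 0.145 (SE, adjusted p = 0.282) for SLC2A1 and 0.40 ± 0.14 (SE, adjusted p = 0.192) for GAB1. The SLC2A1 difference for F1 minus F2 was 0.585 ± 0.153 (SE, adjusted p = 0.0168 in limma). That of GAB1 was 0.713 ± 0.167 (SE, adjusted p = 0.00841), and both differences passed. In F3 the smallest p values belonged to IRS4, TSC1 and AKT1S1. The hypothalamic adaptor IRS4 ranged from 1032 to 1157 in Veh and from 862 to 1026 in sGC with no overlap, as in 0.632% of all genes for this direction, and had a log2 fold change of -0.22 ± 0.045 (SE, adjusted p = 0.079). The log2 fold change of IRS4 was 0.49 ± 0.24 (SE, adjusted p = 0.385) in F1 and 0.39 ± 0.18 (SE, adjusted p = 0.421) in F2. The IRS4 difference for F1 minus F3 was 0.71 ± 0.29 (SE, adjusted p = 0.177 in limma). For F2 minus F3 it was 0.61 ± 0.29 (SE, adjusted p = 0.533), and neither passed. TSC1, a brake on mTOR, had -0.11 ± 0.03 (SE, adjusted p = 0.1), and AKT1S1, an mTOR complex 1 subunit, had 0.10 ± 0.03 (SE, adjusted p = 0.187).

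**Figure D5:**
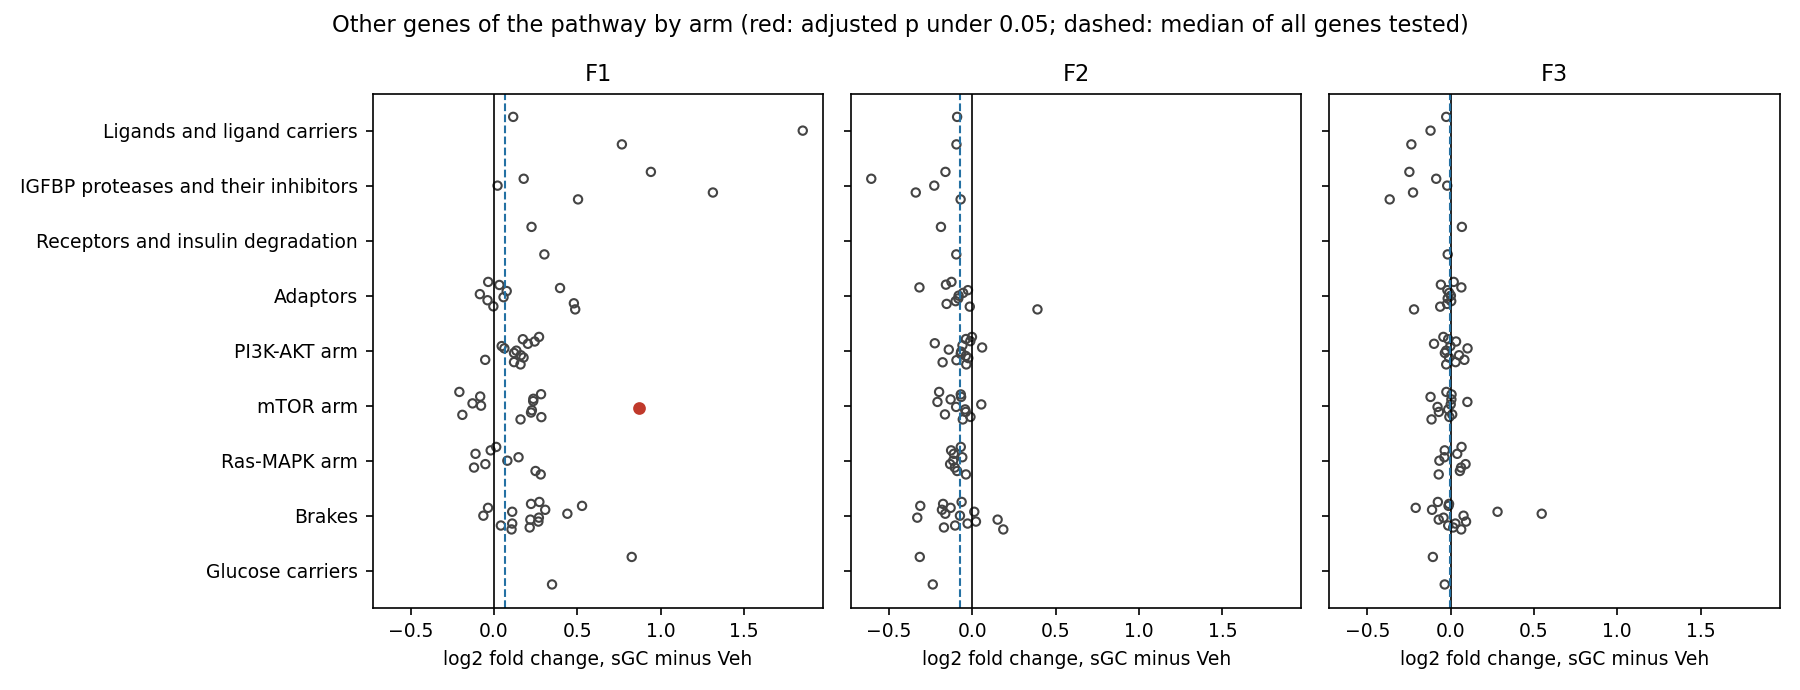
Log2 fold change of sGC minus Veh (horizontal axis) for the 72 tested genes of the pathway list in F1, F2 and F3, by arm (vertical axis); the red point has an adjusted p under 0.05 and dashed lines mark the median of all genes tested. RICTOR in the mTOR arm of F1 is the single red point, at 0.87.

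Several lists of cell type markers had fold changes on 1 side of 0, though 0 markers passed in any generation, and their part in the values above was not tested. In F1 the summed level of the 6 endothelial markers was 5554 to 8485 in Veh and 6671 to 12303 in sGC, with 6 of 6 genes above 0. The 3 of 6 pericyte and smooth muscle markers read in F1 summed to 2824 to 4384 in Veh and 3964 to 12680 in sGC (ACTA2, MYH11 and PDGFRB were not read). The 6 PVN neuroendocrine markers summed to 91185 to 208706 in F1 Veh and 20619 to 180690 in F1 sGC, with 6 of 6 below 0. The 5 oligodendrocyte markers tested in F1 summed to 34706 to 43771 in Veh and 34088 to 96289 in sGC, with 5 of 5 above 0. The highest of these sums was that of sGC replicate 2. Of the 4 microglia markers tested in F1, 3 were above 0 (2993 to 4206 in Veh, 3432 to 6562 in sGC). In F2 the 6 oligodendrocyte markers summed to 125164 to 225722 in Veh and 65936 to 106445 in sGC, with 6 of 6 below 0. Their median log2 fold change was -0.85, against -0.08 for all genes tested in F2. How many of all F2 genes separate the groups this way was not computed. There the PVN neuroendocrine markers were above 0 in 6 of 6 (57323 to 96811 in Veh, 77048 to 170654 in sGC) and the endothelial markers below 0 in 6 of 6 (6389 to 10462 in Veh, 5781 to 7277 in sGC). All F2 markers tested of neurons (4), oligodendrocyte precursors (3), microglia (4) and pericytes and smooth muscle (3) were also below 0. In F2 the median over all genes was itself below 0 as deposited (-0.002 with median-of-ratios size factors), and 65 of 72 pathway list genes were below 0. The sign counts of the markers were not tested against those of all genes. Astrocyte markers were above 0 in 4 of 6 in F2, and those of ependyma and tanycytes in 2 of 2. No listed marker was at 0 in all animals of a generation. Without sGC replicate 1, the animal with the highest endothelial and pericyte sums, the F1 log2 fold change of IGF1R was 0.43 and that of IGF2R was 0.335.

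The genes whose values followed each gene of the set most closely were sought by Pearson's r of log2 values centred on each of the 6 groups, over 32 animals and 10542 genes whose mean reached 50 in each table. The points share the scale of each animal, whose sum varied in F1 and F2, so the values are descriptions. IGF2R had r = 0.93 with each of YWHAE and KIAA1147. IGF1R was most like KDM5A, SMAD4 and SOGA1 (r = 0.90 each), with SMAD4 between 0.87 and 0.92 in each generation. IRS1 was most like CPEB4 (r = 0.91), GRIA1 (0.88) and SSH2 (0.87), and IRS2 like DYNC1H1 (0.88), LINGO1 (0.87) and SPTAN1 (0.86). INSR was most like CBR1 (r = 0.80), NAGLU (0.77) and WRAP53 (0.75). IGFBP4 was most like DDC (r = 0.90), EEF1B2 (0.88) and PFN1 (0.86), but r with DDC was 0.11 in F3 against 0.98 in F2. IGFBP5 was most like HLF (r = 0.81), PRMT8 (0.76) and NXPH1 (0.75), but r with PRMT8 was 0.93 in F1, 0.30 in F2 and 0.11 in F3. In F3, r was also low for IGF2R with YWHAE (0.40) and for IGFBP4 with PFN1 (0.42). IGF1, IGFBP2 and IGFBP3 had too low a mean or no row in each table and were left out.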

How the data were processed

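RNA of PVN punches from 32 female guinea pigs was sequenced from poly(A) libraries. Per the study's methods and the submitters' notes, the authors aligned single-end reads to cavPor3 with TopHat2, counted them on genes, corrected the F3 sequencing batches with ComBat and normalized with RUVSeq residuals. The deposited values are these normalized counts, rounded to whole numbers, and were treated as a score without fixed range, so no count model was used. The deposited tables also hold the authors' own fold changes, likelihood ratios and p-values from edgeR, which were not used. A further 2 re-sequenced F3 Veh libraries were not used here.

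Groups came from the generation and treatment labels. Genes with a mean below 10 were dropped from each table. The log2(value + 1) of the rest was fitted by generation with limma (lmFit, then eBayes with its trend option; limma 3.58.1, R 4.3.3). P-values were adjusted by Benjamini and Hochberg over every gene of a table, at a threshold of 0.05. The added 1 means that fold changes of genes with low values are understated. The difference of the sGC effect between generations was fitted over the joined tables, with group means only. Single genes were also given an exact permutation test in scipy 1.17.1, two-sided and unadjusted. Read depth cannot be taken from normalized values, and the sums given show only their scale, so no counting interval was computed. The median-of-ratios and sample-total scalings, a pseudocount of 0.5, no filter, a minimum of 50, the sequencing batch, and each animal left out were tried. The removed directions as covariates, a variance factor for each generation, a replicate block and the joining of 2 tables were added after seeing the data. Removed directions were found by singular value decomposition over genes with a mean of at least 200. Tested on simulated data with 200 genes changed by 1 on the log2 scale, the fit recovered 86.5% of them in F1, 86.5% in F2 and 98.5% in F3, over 11874, 11965 and 11866 genes. It also called 7, 10 and 9 unchanged genes. Smaller changes, such as those of 0.33 to 0.45 fitted for the receptor genes in F1, were not simulated.

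Named genes were the whole set, every list gene that passed in any generation, the 3 list genes with the smallest p in each generation, and the 3 genes most like each member. One result under this rule is not reported here. The set, the pathway list, the marker lists and these rules were chosen with earlier results of these data known. No sequence or coordinate of cavPor3 was used here. All 10 symbols matched the RefSeq annotation of the mCavPor4.1 assembly, which served for names only.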

Additional observations from a re-analysis of the deposited data

Results flagged for a closer look

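The sGC effect differed between generations for IGF1R, by 0.43 between F1 and F2 and by 0.458 between F1 and F3 on the log2 scale, and for IGF2R, by 0.448 between F1 and F2. These were tested as differences in limma. The calls between F1 and F2 were lost with a variance factor for each generation (adjusted p 0.0919 for IGF1R and 0.104 for IGF2R) and with F1 and F2 joined alone (0.105 and 0.159). IGF2R also lost its call with the removed directions as covariates (0.0673) and in 9 of 32 fits with 1 animal left out. For IGFBP3 all 5 F1 sGC animals lay above the Veh mean and all 6 F3 sGC animals below it, with a difference of 0.979 that did not pass (adjusted p = 0.0859 in limma).

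Of 54 groups of animals examined gene by gene, 3 held 1 animal far from the rest, where chance at 1 in 20 gives 2.7. In F2 sGC, IGFBP4 was 374 in replicate 3 against 492 to 549 in the other animals. In F3 Veh, IGF1 was 109 in replicate 6 against 42 to 52, and without that animal the F3 log2 fold change of IGF1 was -0.235. In F3 sGC, IGF2R was 1896 in replicate 3 against 1672 to 1735.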

How the results depend on the processing

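The F1 counts depended on scaling. With median-of-ratios size factors, 2 genes of the set (IGF1R and IGF2R), 16 genes of the pathway list and 2058 genes in all passed in F1, and with the sample total 2, 15 and 1943 did, against 0, 1 and 78 as deposited. Over all genes, 1006 were higher and 1052 lower with size factors, 1026 and 917 with the sample total, and 72 and 6 as deposited. The list genes that passed included HRAS, MAP2K1 and RHEB on both scales, and MLST8 with size factors. These had the lower mean in sGC. Leaving out 1 animal at a time gave 0 to 3 genes of the set, 0 to 3 of the pathway list and 15 to 474 in all in F1, where 474 came without Veh replicate 2 and 15 without Veh replicate 4. The adjusted p of IGF1R in F1 ranged from 0.00119 to 0.253 over all settings. In F2 and F3 no gene of the set or of the pathway list passed under any setting run. Over all genes, F2 gave 17 with a minimum mean of 50 and 0 to 114 with 1 animal left out. In F3 it gave 1 with the removed directions as covariates, 3 with the batch as a covariate, 2 in the first batch alone and 1 to 15 with 1 animal left out. The count of the set that differed between F1 and F2 was 0 with a variance factor for each generation (146 of all genes, 1.28%), 0 with 2 tables joined (159, 1.37%), 1 with the removed directions as covariates (448, 3.92%) and 1 to 3 with 1 animal left out (439 to 2447). Between F1 and F3 it was 3 with median-of-ratios size factors (2013 of all genes, 17.6%), which added INSR and IGF2R, and 1 to 3 with 1 animal left out (193 to 1281). INSR passed there without F1 Veh replicate 2 (adjusted p = 0.0308 in limma), and IRS1 passed between F1 and F2 without F1 Veh replicate 2 (0.0225) or F1 sGC replicate 5 (0.017).

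Fold changes near 0 changed sign. In F2, median-of-ratios size factors turned IRS2 to 0.0231 and IGF2R to 0.000217, and the sample total turned IRS1 to 0.00893, IRS2 to 0.033 and IGF2R to 0.01. In F3, both batch settings turned IGF1R to 0.0174 and IGFBP2 to 0.0129. With 1 animal left out, IRS2 ranged from -0.108 to 0.0404 in F1, from -0.107 to 0.0021 in F2 and from -0.0209 to 0.035 in F3, IGF1R from -0.0107 to 0.07 in F2 and from -0.0318 to 0.0103 in F3, INSR in F2 from -0.011 to 0.153 and IGF1 in F2 from -0.489 to 0.00445. The cause of these changes was not tested. The F1 fold changes of INSR, IRS1, IGF1R, IGF2R and IGFBP3 kept their sign in every setting run. The labels give no number that ties Veh to sGC animals, but the columns of the tables are numbered. Same-numbered animals did not deviate together (r of their deviations from -0.59 to 0.29, and 1 of 16 Veh animals correlated best with its own number), so the numbers were not taken as pairs. With that number as a replicate block, chosen after seeing the data, 146 genes passed in F1, 6 in F2 and 0 in F3, with 0 genes of the set in each and an adjusted p of 0.0587 for IGF1R in F1.

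With 5 or 6 animals a group and a scale that varied in F1 and F2, small changes cannot be told from the spread. The p-values take no account of the removed directions unless stated. Read depth of each gene is unknown, and IGF1, IGFBP2 and IGFBP3 are the least certain for their low values.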
